A study of Mus musculus with 8 samples.

Results

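Genes whose symbols begin with Usp and a digit, the ubiquitin-specific proteases, or with Ube2, the ubiquitin-conjugating enzymes, were followed through male meiosis in deposited splicing tables of sorted mouse germ cells. The tables held 79 such genes, 47 Usp and 32 Ube2, of 12587 genes in all. Round spermatid tables held 74 of them, with 459 of 52897 splicing events, and spermatocyte tables held all 79, with 629 of 66122 events. The symbol alone decided membership and not enzyme activity. Genes that carry the name but are not known as active ubiquitin proteases, such as Usp6nl and Usp39, were counted too.

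Ubiquitin is a small protein that is joined to other proteins to mark them for destruction by the proteasome, for sorting or for a change of activity. An E1 enzyme activates it, an E2 enzyme (Ube2) carries it, and an E3 ligase passes it to the target, while proteases such as the Usp family take it off again. Developing sperm rely on this system when the sex chromosomes are silenced in meiosis, when histones are removed, and when cytoplasm and organelles are discarded.

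Round spermatids, the haploid cells that follow meiosis, and spermatocytes, the cells in meiosis, came from adult C57BL/6 mice with a Larp7 conditional knock-out and from control mice, labelled wildtype. Larp7 binds 7SK RNA, a regulator of transcription. Cells were stained with a Hoechst DNA dye and sorted by FACS, and polyadenylated RNA was sequenced from 2 biological replicates of each stage and genotype, 8 libraries in all. The Cre driver of the conditional allele and the number of animals behind a library were not stated. The p-values therefore rest on the spread between these libraries, which the limma fits share in part across all events or genes. A small p can thus go with libraries that overlap between groups. The tables number the groups of a stage without naming a genotype, and differences within a stage are therefore first minus second sample group.

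The targeted gene was low in the first sample group. Larp7 had 1853 and 4364 reads in the first sample group of spermatocytes, against 13935 and 13273 in the second (limma log2 difference -2.63, SE 0.17, adjusted p = 2.95e-08). In round spermatids it had 2758 and 6699 reads, against 13889 and 14814 (-2.06, SE 0.21, limma adjusted p = 0.0129). Genotype was not assigned from these values. Event reads per library ranged from 49904607 to 93265932 in round spermatids and from 51786242 to 102000320 in spermatocytes. The stage labels were set against marker genes. All 5 tested round spermatid markers and all 3 tested elongating spermatid markers were higher in round spermatids, whereas 7 of 10 spermatocyte markers were lower there and 1, Ccna1, was higher. The defining genes Prm1, Prm2, Tnp1, Tnp2, Odf1, Tssk1, Tssk2 and Pgk2 were in neither stage's tables and were not analysed here.

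Abundance was read from the splicing event with the most reads in each gene, as RPM (reads scaled to library depth by median ratios), and a gene was called with a limma adjusted p below 0.05 over all genes. Reads include those within the exon, so the value follows transcript amount but belongs to that event. Levels set between genes were also divided by the length of the counted form, giving RPM per kilobase.

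By that length-scaled level, E2 genes led in both stages. Ube2s, which extends ubiquitin chains for the anaphase-promoting complex, averaged 3535 ± 477 in round spermatids and 4433 ± 113 in spermatocytes (SD, n = 4 libraries of a stage). It was first of 71 ranked members in round spermatids and first of 77 in spermatocytes. In round spermatids it was followed by Ube2d3 (2940.0 ± 548), Ube2j1 (2236 ± 441), Ube2m (2088 ± 499), Ube2n (2000.0 ± 236) and Ube2l3 (1934 ± 255). Each of these 5 overlapped its neighbour in range, so the order of neighbours was not fixed. That includes first place, as Ube2s (2867 to 3954) overlapped Ube2d3 (2361 to 3491). Usp1 (1566 ± 143), Usp15 (1422 ± 349), Usp8 (1155 ± 159.9) and Usp47 (1151 ± 59.6) completed the first 10.

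In spermatocytes Ube2l3 (1926 ± 242), Ube2m (1662 ± 251) and Ube2d3 (1606 ± 38.1) came next and overlapped in range. Usp1 (1167 ± 121), which removes ubiquitin from DNA repair proteins, lay below these 3. Usp2 (913 ± 16.5), Ube2d2a (882 ± 78.9), Ube2t (869 ± 40.0) and Ube2b (839 ± 62.9) followed without separation among themselves. For these levels the event with the most reads was chosen within each stage, so a gene's levels can belong to different events. Usp2 was read at its 124-nt exon in spermatocytes and at its 857-nt exon in round spermatids (881 ± 134). Levels of a gene are therefore not a comparison of stages. With this limit, the first 10 members of each stage had 5 genes in common. Above the median gene stood 45 of 71 members in round spermatids and 49 of 77 in spermatocytes.

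Between stages the members moved widely and in both directions. Of the 79 members, 72 could be tested: Ube2e1, Usp22, Usp26, Usp29, Usp36 and Usp46 had no event in both stages' tables, and Ube2d1 averaged fewer than 10 reads a library. Of these 72, 56 were called, near the 75.4% of all 8512 genes. They comprised 35 that were higher in round spermatids, where 38.3% of all genes were, and 21 that were lower, where 37.1% of all genes were. Changes of at least 2-fold numbered 19 higher and 13 lower. The median log2 difference (round spermatids minus spermatocytes) was 0.29 for members and -0.02 for all genes. Scaling by library sum instead moved the median of all genes to -0.45 and turned the split to 22 higher and 29 lower, so the balance of directions depends on the scaling. Of the 56 calls, 39 kept the call and the direction under every setting that gave a value. The stages did not overlap in 47 of the 56 (83.9%), against 5512 of all 6420 called genes (85.9%). In sorted bulk cells, a change in the share of cells that carry a transcript and a change per cell cannot be told apart.

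**Figure D1:**
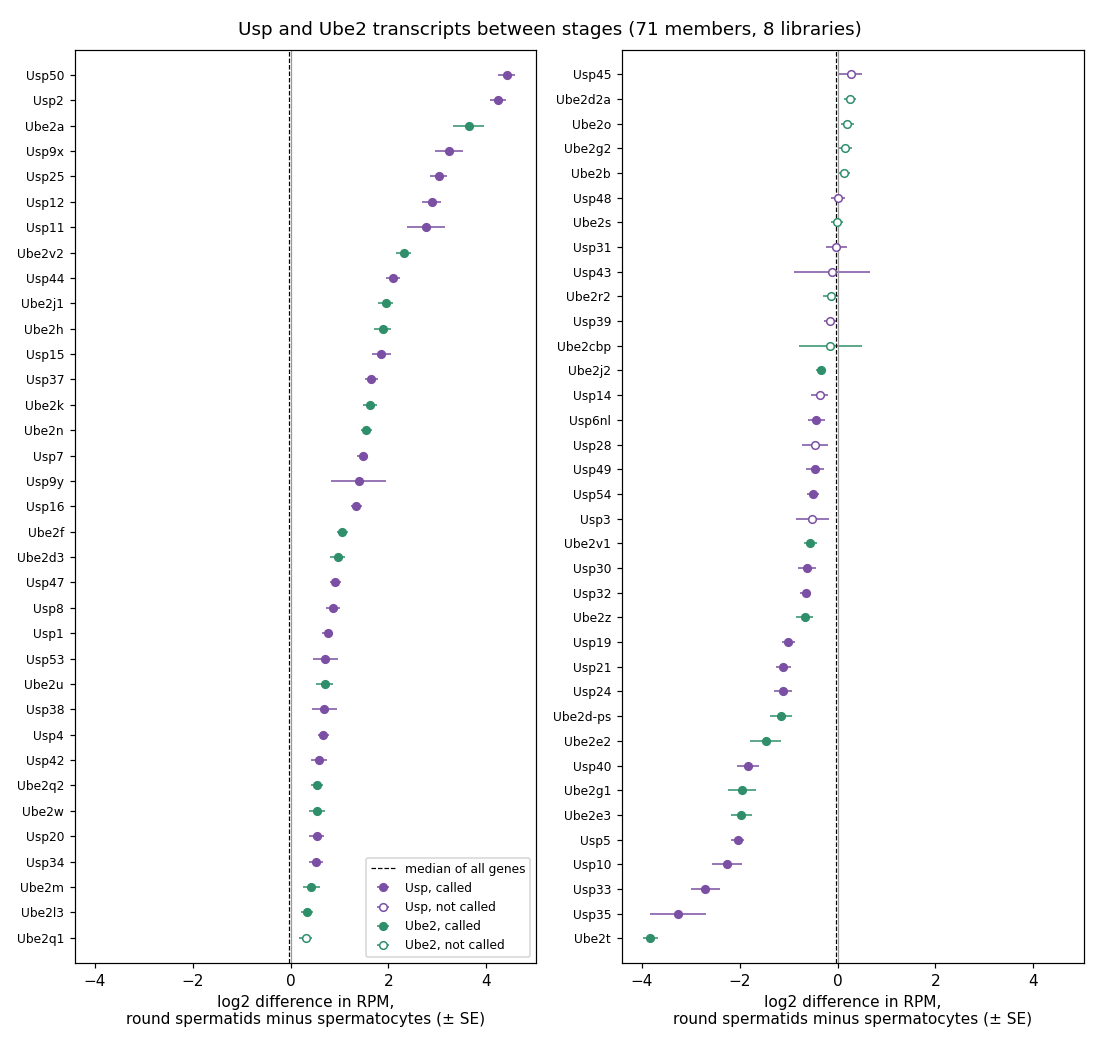
Log2 difference in RPM, round spermatids minus spermatocytes, for 71 of the 72 members tested, ordered from highest to lowest. Points are limma estimates with bars of 1 SE over 8 libraries, filled where called, purple for Usp and green for Ube2; the dashed line is the median of all genes (-0.02). Usp50 and Usp2 stand highest, at 4.42 and 4.25, and Ube2t lowest, at -3.82.

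The highest member was Usp50, a little-studied protease family gene. Usp50 had 173, 249, 285 and 235 RPM in the 4 round spermatid libraries, against 8.73, 12.4, 9.45 and 13.3 in spermatocytes. Every round spermatid library lay above every spermatocyte library (log2 difference 4.42, SE 0.18, limma adjusted p = 5.35e-10). Its 4 shared events gave log2 ratios between 4.33 and 4.76.

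Usp2, whose loss in mice impairs male fertility, changed unevenly along the gene. Its 857-nt exon (mm10 chromosome 9, 44075366 to 44076222) had 862, 1198, 1335 and 1316 RPM in round spermatids, against 61.6, 53.5, 50.4 and 83.8 in spermatocytes. The difference of that exon was called (log2 4.25, SE 0.16, limma adjusted p = 3.74e-10). The 258-nt exon upstream (44068038 to 44068295) had 218, 423, 308 and 464 RPM in round spermatids and 16.7, 15.6, 11.9 and 26.1 in spermatocytes.

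A downstream 124-nt exon of Usp2 (44090030 to 44090153) differed much less. It had 461, 472, 567 and 473 RPM in round spermatids, against 271, 263, 261 and 256 in spermatocytes. The log2 ratio of the stage means was 4.33 for the 258-nt exon, 4.24 for the 857-nt exon and 0.91 for the 124-nt exon, and the groups overlapped in none of them. With reads summed over all shared events the log2 difference of Usp2 was 2.58. The annotated Usp2 start in the RefSeq promoter table follows 44084919, so it lies between the 857-nt and the 124-nt exon. The noncoding gene Gm39325 overlaps the 857-nt exon, and whether reads were counted by strand is not stated.

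**Figure D2:**
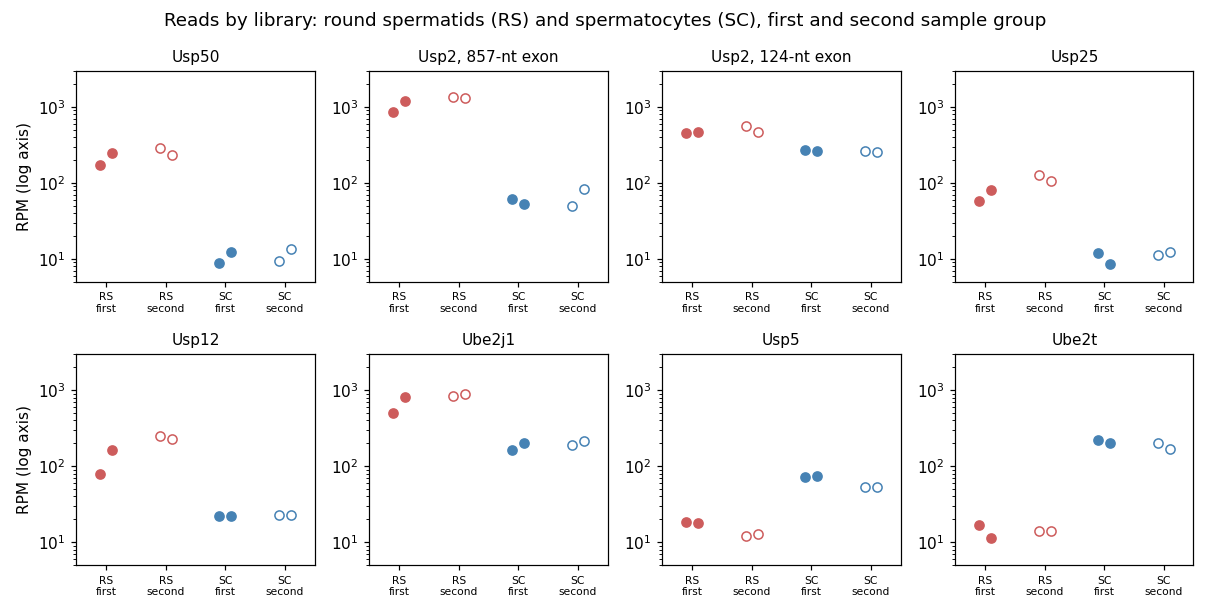
RPM (log axis) in each library for 7 members, Usp2 by 2 of its exons, with round spermatids (RS, red) left of spermatocytes (SC, blue); filled points are the first and open points the second sample group. The 857-nt Usp2 exon separates the stages by more than the 124-nt exon, at log2 ratios of 4.24 and 0.91, and Usp5 and Ube2t are lower in round spermatids.

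Among autosomal proteases, Usp25 and Usp12 also rose. Usp25 had 58.1, 81.0, 127 and 107 RPM in round spermatids, against 11.99, 8.53, 11.2 and 12.5 in spermatocytes (log2 difference 3.02, SE 0.17, limma adjusted p = 6.68e-09). Usp12, a partner of the WD-repeat protein Wdr48, had 78.5, 163, 252 and 228, against 21.8, 21.9, 22.8 and 22.6 (2.88, SE 0.19, limma adjusted p = 2.97e-08). For both genes the stages did not overlap. In both genes the lowest round spermatid library belonged to the first sample group.

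Usp44, which acts at the spindle checkpoint and on histone H2B, had 156, 209, 293 and 219 RPM in round spermatids and 42.8, 41.8, 61.4 and 57.7 in spermatocytes (2.09, SE 0.14). Other proteases that rose at least 2-fold with no overlap were Usp15 (1.86), Usp37 (1.65), which opposes the anaphase-promoting complex, Usp7 (1.47) and Usp16 (1.35), which acts on histone H2A. The lowest and highest libraries of Usp7 were 282 and 437 RPM in round spermatids, against 122 and 147 in spermatocytes.

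E2 genes that rose belonged to several roles. Ube2j1, an E2 of the endoplasmic reticulum whose loss makes male mice sterile, had 504, 814, 838 and 892 RPM in round spermatids, against 164, 204, 193 and 214 in spermatocytes (1.95, SE 0.15, limma adjusted p = 1.21e-07). Ube2n, which builds lysine-63 chains, had 579.5, 679, 799 and 761, against 234, 242, 249 and 232 (1.55, SE 0.11, limma adjusted p = 4.73e-08). Its inactive partner Ube2v2 had 82.1, 79.1, 94.4 and 87.0, against 27.4, 18.6, 11.99 and 14.2 (2.31, SE 0.16, limma adjusted p = 3.59e-08). No library crossed between stages in these 3 genes. The other partner, Ube2v1, fell (-0.56, SE 0.13), at 48.6 to 62.4 RPM in round spermatids and 72.5 to 88.8 in spermatocytes. Ube2h (1.88) and Ube2k (1.62) also rose.

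Ube2t and Usp5 were among the members that fell. Ube2t, the E2 of the Fanconi anaemia pathway, had 17.0, 11.3, 13.8 and 14.2 RPM in round spermatids, against 224, 201, 204 and 168 in spermatocytes (-3.82, SE 0.16, limma adjusted p = 5.12e-10). Usp5, which takes apart free ubiquitin chains, had 18.4, 18.1, 11.9 and 12.9, against 71.2, 74.9, 53.5 and 52.5 (-2.04, SE 0.14, limma adjusted p = 3.2e-08). Both genes were lower in every round spermatid library than in any spermatocyte library. Its 4 shared events set Usp5 between -2.04 and -0.59, so the size depends on the exon read.

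Lower still in reads, Usp35 (-3.25, SE 0.58), Usp33 (-2.70, SE 0.29) and Usp10 (-2.25, SE 0.31) fell too. Their highest round spermatid libraries were 0.822, 1.63 and 3.66 RPM, against lowest spermatocyte libraries of 2.76, 7.70 and 7.96. Ube2e3 (-1.96), Ube2g1 (-1.95) and Usp40 (-1.82) followed.

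Of 48 called members with several shared events, 40 had every event on the same side of 0. The exceptions included Ube2f, Ube2m, Ube2q2, Usp15, Usp20, Usp30 and Usp4. Usp30 was lower at the event read (-0.62) and higher with reads summed over events (0.46). Ube2m and Ube2l3 changed sign under library-sum scaling (Ube2m 0.43 by median-ratio and -0.00045 by library-sum scaling, Ube2l3 0.34 and -0.09). Overlapping protein-coding genes share the position read in Usp34 (Ahsa2) and Usp49 (Gm20517), so these values are uncertain. Ube2d-ps, named as a pseudogene of the Ube2d genes, may share reads with them (-1.16, SE 0.23).

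By role, calls in the stage comparison went as follows, where 38.3% of all genes were called higher and 37.1% lower. Histone and chromatin proteases had 5 of 8 tested members higher and 2 lower, with Usp21 (-1.11) among the lower. Usp42 and Usp6nl stand in 2 lists each. Endosome, membrane and cytoskeleton proteases had 6 of 13 higher and 7 lower. All 3 tested testis-linked Usp genes, Usp2, Usp42 and Usp50, were higher. E2 enzymes of ubiquitin-like proteins had 3 of 4 higher and 1, Ube2z, lower. E2 enzymes of the endoplasmic reticulum and lysine-48 chains had 2 of 6 higher and 2 lower, broad chain initiators 4 of 7 and 2, Rad6 and chromatin E2 enzymes 1 of 3 and 1, and lysine-63 E2 enzymes 2 of 3 and 1. DNA repair proteases had 2 of 5 higher, other E2 enzymes 2 of 5 higher, and proteases of the proteasome and free ubiquitin 1 of 2 lower. Of Usp39 and Usp6nl, Usp6nl was lower. Of 15 tested members with a known or proposed germ cell role 13 were higher and none was called lower; Ube2b and Usp14 were not called. These lists were drawn up with results of the same tables known, and the balance of directions depends on the scaling. The 13 of 15 is therefore not a test of a germ cell role.

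Ube2b, the Rad6 E2 needed for sperm formation in mice, had 199, 223, 254 and 257 RPM in round spermatids and 221, 228, 191 and 205 in spermatocytes. The stages overlapped (log2 0.14, SE 0.11, limma adjusted p = 0.26). Usp14, a protease of the proteasome, had 16.1 to 21.6 in round spermatids and 21.0 to 32.7 in spermatocytes (-0.37, SE 0.18, limma adjusted p = 0.0781).

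Other parts of the ubiquitin system gave their own counts, beside the same 38.3% of all genes higher and 37.1% lower. Among E1 enzymes 1 of 8 was higher in round spermatids and 6 were lower. X-linked Uba1, the main ubiquitin E1, averaged 96.5 RPM in round spermatids and 8.49 in spermatocytes (3.65, SE 0.23), and Nae1, of the Nedd8 E1, 8.11 and 87.9 (-3.44, SE 0.19). Of 7 ubiquitin and ubiquitin-like genes 5 were lower, with Sumo2 at 41.4 and 288 (-2.82, SE 0.13). Other deubiquitinases had 9 of 18 higher and 3 lower, with Otub2 at 171 and 10.04 (4.06, SE 0.20). E3 ligases and partners had 14 of 35 higher and 13 lower.

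The 3 X-linked members tested were higher in round spermatids. Ube2a, an X-linked Rad6 E2, had 19.6, 27.2, 35.6 and 35.1 RPM in round spermatids, against 6.43, 2.29, 0.999 and 1.71 in spermatocytes (3.64, SE 0.31, limma adjusted p = 3.25e-07). Usp9x, an X-linked protease of endosomal and membrane proteins, had 35.0, 60.4, 24.1 and 40.0, against 10.7, 4.73, 2.0 and 2.43 (3.24, SE 0.29, limma adjusted p = 4.18e-07). Usp11, also X-linked, had 26.3, 18.3, 11.6 and 11.2, against 10.3, 2.71, 0.636 and 1.44 (2.78, SE 0.39, limma adjusted p = 3.01e-05). The stages did not overlap in these 3 genes, although the first library of the first spermatocyte group came close in Usp11. All 3 X-linked members tested were called higher, where 76.9% of 156 X-linked genes were. The Y-linked Usp9y was called too (1.39, SE 0.56, limma adjusted p = 0.0389), but its 3.72, 1.38, 3.31 and 1.29 RPM in round spermatids overlapped the 5.85, 1.98, 0.273 and 0.0901 in spermatocytes. Of these, the first sample group gave 3.72 and 1.38 in round spermatids, below its 5.85 and 1.98 in spermatocytes, and the second group alone was higher in round spermatids.

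Several germ cell members rose by less than 2-fold. Usp8, an endosomal protease, had 818 to 1205 RPM in round spermatids and 425 to 725 in spermatocytes (0.86, SE 0.14). Usp1 had 569 to 714 and 342 to 421 (0.76, SE 0.11). Usp42 rose as well (0.58, SE 0.15), but its lowest round spermatid library, at 130.1, lay under its highest spermatocyte library, at 150.5.

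The letters before the start of members that rose are shown because these genes were all called higher. RefSeq promoters (build GRCm38.p6) matched 61 of the 79 members. The windows hold the 250 bases before each start, 5' to 3' on the gene's strand, and capitals mark matches on either strand to TGACG (the core of the cAMP response element), TGACGTCA (the full element, which contains the core on both strands) or GTTGCC (letters read by RFX factors). The full element is read by the CREB and CREM factors, and CREM and RFX factors are known regulators of spermatid genes.
Usp50, chr2:126783461-126783710, minus strand: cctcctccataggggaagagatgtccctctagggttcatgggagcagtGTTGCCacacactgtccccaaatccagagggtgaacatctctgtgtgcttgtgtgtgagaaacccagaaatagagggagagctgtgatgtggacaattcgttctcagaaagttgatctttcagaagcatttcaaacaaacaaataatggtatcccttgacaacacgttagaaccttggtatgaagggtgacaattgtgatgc
Usp2, chr9:44084670-44084919, plus strand: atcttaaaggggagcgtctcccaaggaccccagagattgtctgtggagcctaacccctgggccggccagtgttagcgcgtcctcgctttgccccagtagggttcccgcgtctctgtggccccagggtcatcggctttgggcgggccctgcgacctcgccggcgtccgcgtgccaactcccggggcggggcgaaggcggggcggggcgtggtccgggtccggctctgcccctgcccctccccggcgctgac
Usp25, chr16:77013819-77014068, plus strand: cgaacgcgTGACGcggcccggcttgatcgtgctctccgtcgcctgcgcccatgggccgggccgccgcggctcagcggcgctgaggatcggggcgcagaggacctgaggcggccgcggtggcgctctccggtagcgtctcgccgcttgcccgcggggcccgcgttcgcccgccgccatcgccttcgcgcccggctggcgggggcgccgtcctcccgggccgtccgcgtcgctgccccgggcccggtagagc
Ube2j1, chr4:33031130-33031379, plus strand: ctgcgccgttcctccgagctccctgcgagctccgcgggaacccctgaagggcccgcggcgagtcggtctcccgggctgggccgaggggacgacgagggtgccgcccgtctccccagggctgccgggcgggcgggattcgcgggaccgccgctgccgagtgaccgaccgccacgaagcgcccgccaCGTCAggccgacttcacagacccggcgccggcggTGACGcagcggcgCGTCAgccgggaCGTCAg
Ube2h, chr6:30304540-30304789, minus strand: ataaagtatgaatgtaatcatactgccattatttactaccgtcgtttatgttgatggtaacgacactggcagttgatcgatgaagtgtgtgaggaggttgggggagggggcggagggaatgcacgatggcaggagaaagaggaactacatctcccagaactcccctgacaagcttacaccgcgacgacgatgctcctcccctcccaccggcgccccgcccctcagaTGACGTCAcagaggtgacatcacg
Ube2n, chr10:95514912-95515161, plus strand: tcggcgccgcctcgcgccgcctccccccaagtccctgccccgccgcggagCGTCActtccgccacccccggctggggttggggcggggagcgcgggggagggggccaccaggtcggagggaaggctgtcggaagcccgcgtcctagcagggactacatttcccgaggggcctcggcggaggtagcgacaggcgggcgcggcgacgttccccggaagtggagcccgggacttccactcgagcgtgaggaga

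Ube2j1 held TGACG 4 times, Ube2h held the full element, Usp25 and Ube2n held TGACG once each, and Usp50 held GTTGCC once. Usp2 held none of these letters in this window. The window lies downstream of its 258-nt and 857-nt exons, and the 124-nt exon after it had a log2 ratio of only 0.91. Of the windows not printed, those of Ube2a, Usp12, Usp15 and Ube2k held none of these letters. Those of Usp11 and Usp37 held TGACG, and another window of Ube2h held only GTTGCC. Among the 15 members higher by at least 1.5 on the log2 scale, 12 had promoters in the table, in 13 windows. TGACG stood in 6 of the 13 (46.2%), against 17.8% of all 32851 promoters. Over all members called higher it stood in 9 of 35 windows (25.7%), over those called lower in 4 of 21 (19.0%), and over all Usp and Ube2 genes in 16 of 73 (21.9%). TGACGTCA stood in 1 of 13, against 1.55% of all, and GTTGCC in 2 of 13 (15.4%), against 10.4% of all. These are counts of letters, and the set was chosen by the stage difference itself.

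Splicing was measured as inclusion, the percent of length-scaled reads that support the longer form (for mutually exclusive exons, the first form), and events were called with a limma adjusted p below 0.05 on the log2 odds of inclusion. Between stages, 33 of 313 member events in 23 of 72 genes were called, against 12.5% of all 34455 events. Inclusion was higher in round spermatids in 20 events and lower in 13, where 6.52% and 6.01% of all events were. Most differences were small: 6 of the 33 reached 10 percentage points, the median was 3.57 points, and the median over called events of all genes was 6.98. In 13 of the 33 both stages included the part in over 90% of transcripts. Skipped exons (SE) made up 24 events, retained introns (RI) 4, alternative 3' splice sites (A3SS) 2, mutually exclusive exons (MXE) 2 and an alternative 5' splice site 1. The stages did not overlap in 19 of the 33 (57.6%), against 2860 of the 4317 called events of all genes (66.2%).

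A 62-nt exon of Usp15 changed with the smallest p. Usp15, a protease known from several signalling pathways, included this exon (chromosome 10, 123163593 to 123163654, mm10 as all positions) at 69.2, 65.9, 70.2 and 73.4% in round spermatids, against 89.2, 89.2, 91.7 and 90.2% in spermatocytes. Every round spermatid library was lower (-20.4 points; log2 odds -1.97, SE 0.21, limma adjusted p = 3.35e-18). At 62 nt the exon is not a multiple of 3 bases, and 9 of the 24 called exons were, against 87 of the 238 tested.

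Both endoplasmic reticulum E2 genes of the Ube2j pair gained exon inclusion. A 120-nt exon of Ube2j1 (chromosome 4, 33045080 to 33045199) reached 87.0, 89.3, 88.9 and 88.5% in round spermatids, against 83.0, 81.6, 80.1 and 81.2% in spermatocytes (6.96 points; log2 odds 0.84, SE 0.14, limma adjusted p = 1.86e-07). A 163-nt exon of Ube2j2 (chromosome 4, 155946255 to 155946417) had inclusion levels of 89.0, 87.3, 90.8 and 89.2%, against 74.3, 80.0, 86.4 and 80.7% (8.73 points, limma adjusted p = 5.36e-05). The stages did not overlap in either exon. The same Ube2j2 exon with another flanking exon, an event that shares reads with the first, differed by 9.16 points. A 95-nt exon of Ube2j2 starting at 155944540 had 25.5, 37.0, 27.1 and 24.5%, against 18.9, 21.3, 17.6 and 18.3% (9.48 points, limma adjusted p = 0.0255).

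Usp9x changed at a pair of places. Its 111-nt exon (chromosome X, 13072215 to 13072325) showed inclusion of 96.1, 100, 100 and 100% in round spermatids, against 79.1, 94.8, 36.4 and 57.2% in spermatocytes (32.1 points; log2 odds 4.19, SE 0.94, limma adjusted p = 0.000179). Its 15-nt alternative 3' part (13116609 to 13116623) had 57.9, 49.1, 54.8 and 47.97%, against 35.8, 39.5, 20.6 and 18.5% (23.8 points, limma adjusted p = 0.0208). No library crossed between stages at either place, but the spermatocyte sample groups differed from each other in both.

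Ube2b, which was not called in abundance, changed in its choice of exon. The 26-nt first of its mutually exclusive exons (chromosome 11, 51995374 to 51995399; the alternative is 51997818 to 51997898) was chosen at 55.3, 59.3, 59.7 and 58.5% in round spermatids, against 43.6, 43.6, 49.4 and 47.8% in spermatocytes. Each round spermatid library was higher (12.1 points; log2 odds 0.71, SE 0.19, limma adjusted p = 0.00325). Ube2q2 chose its 102-nt exon (chromosome 9, 55162968 to 55163069) less often in round spermatids, at 23.0, 18.3, 22.4 and 14.4%, against 36.0, 31.1, 24.0 and 23.4% (-9.09 points, limma adjusted p = 0.0051).

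Other called events of the 15 smallest p moved near one end of the scale. A 104-nt exon of Usp4 was included at 99.1 to 99.2% in round spermatids and 93.8 to 98.1% in spermatocytes (2.62 points). An intron of Usp7 was retained at 2.16 to 3.62% and 3.48 to 4.59% (-1.46 points). Events of Usp32 (-2.11), Usp16 (0.643 and -2.57), Ube2h (0.989), Ube2s (0.237) and Usp37 (3.75) differed by under 5 points. A 116-nt exon of Ube2g1 differed by 18.2 points, but its 14.2, 56.7, 12.3 and 29.0% in round spermatids overlapped the 6.97, 9.83, 7.90 and 14.9% in spermatocytes, on 5 to 14 inclusion reads a round spermatid library. Events not called but without overlap included a 74-nt exon of Usp28 at 100, 100, 100 and 90.6%, against 67.7, 76.0, 82.9 and 88.9% (18.8 points, limma adjusted p = 0.12).

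**Figure D3:**
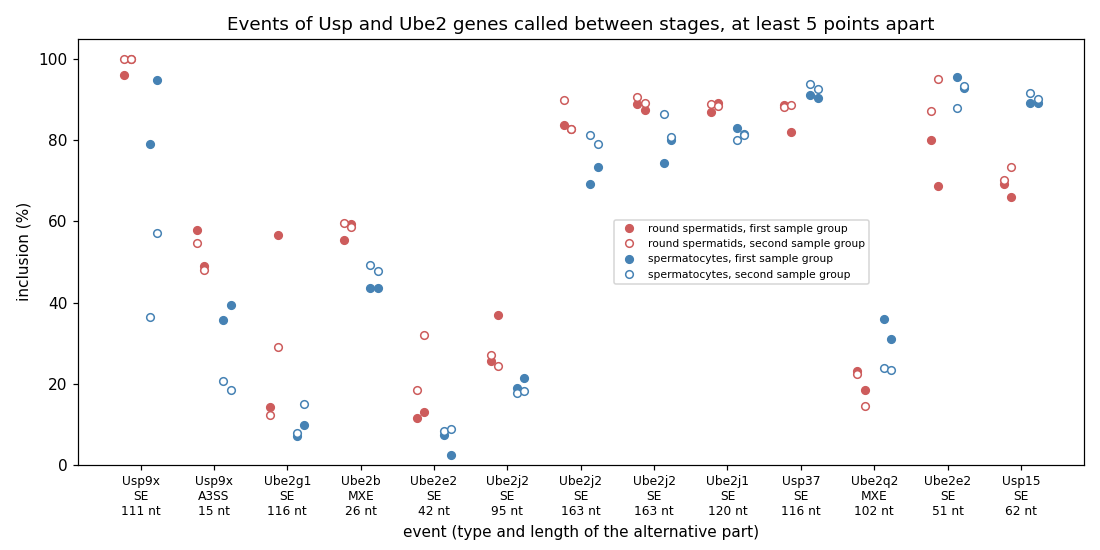
Inclusion (percent) in each library for the 13 called events at least 5 points apart, with round spermatids (red) left of spermatocytes (blue); filled points are the first and open points the second sample group. Usp15 is lower in all 4 round spermatid libraries (-20.4 points), and the 111-nt Usp9x exon is between 96.1 and 100% there.

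Of the 33 events, 7 kept the call under every setting tried: those of Usp15, Ube2j1, Usp4, Usp9x (111 nt) and Ube2b, and the 163-nt exon of Ube2j2 with both flanks. Of the 23 genes with a called event, 19 were also called in abundance (82.6% of the 23 and 33.9% of the 56), where 77.8% of all tested members and 75.4% of all genes were.

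Within spermatocytes the first sample group was compared with the second. In abundance 8 of 77 tested members were called, against 7.6% of all 9861 genes. They were 7 higher and 1 lower in the first sample group, where 4.89% of all genes were higher and 2.71% lower. Ube2d1 and Usp29 had too few reads. All 4 X-linked members tested were among the higher ones, where 37.7% of 175 X-linked genes were, and so was Y-linked Usp9y. Of 72 autosomal members 2 were higher and 1 lower. Library-sum scaling gave 5 members higher and 0 lower by limma.

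Ube2a had 16.3 and 6.38 RPM in the first sample group, against 1.65 and 3.002 in the second (2.18, SE 0.45, limma adjusted p = 0.00897). Usp11 had 9.64 and 2.57, against 0.607 and 1.37 (2.40, SE 0.64, limma adjusted p = 0.0294). Usp9x had 10.003 and 4.50, against 1.91 and 2.32 (1.66, SE 0.45, limma adjusted p = 0.0333). In each, library 1 of the first group had the highest value of the 4. The groups overlapped in none of these genes, nor in any of the 749 genes called over all genes. Usp26, an X-linked protease expressed in testis, had 6.13 and 2.08, against 0.607 and 0.858 (2.25, SE 0.66, limma adjusted p = 0.0427). The noncoding gene Gm35727 overlaps the position read in Usp26, and whether reads were counted by strand is not stated. Usp9y had 61 and 38 reads, against 3 and 1, or 5.50 and 1.88 RPM against 0.260 and 0.0858 (limma adjusted p = 0.0127). Its ratio was 18.3, with an exact 95% counting interval of 6.94 to 68.6 that covers counting error only. Usp9x and Usp9y are near copies of each other, and how reads matching both were handled was not stated.

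The autosomal calls were Ube2e1, a chromatin E2, Usp22 of the SAGA complex, and Usp8. Ube2e1 had 91.6 and 75.7 RPM, against 56.6 and 44.7 (0.73, SE 0.18, limma adjusted p = 0.0222). Usp22 had 8.02 and 2.87, against 0.694 and 1.63 (2.13, SE 0.60, limma adjusted p = 0.0369). Usp8 was the 1 lower member, at 399.6 and 526, against 692 and 676 (-0.58, SE 0.17, limma adjusted p = 0.0427). None of the 3 overlapped between groups, as held for all 749 called genes.

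Marker sums of spermatogonia and Sertoli cells were higher in the first sample group too, whereas those of Leydig, peritubular and immune cells overlapped between groups. Summed RPM of 7 spermatogonia markers found of 10 were 212 and 59.7 in the first sample group, against 20.2 and 26.5 in the second, and 6 of 7 tested were called higher. Gfra1, Nanos3 and Sall4 were not analysed here. Sertoli cell markers, 5 of 8 found, summed to 187 and 134, against 43.2 and 73.4, with 3 of 4 tested higher. Amh, Rhox5 and Sox9 were not analysed here. Leydig, peritubular and immune markers, 5 of 9 found, summed to 60.2 and 39.5, against 36.5 and 46.8, with 0 of 3 called by limma. No marker found was at 0 reads. Of the 10 spermatocyte markers 4 were higher and 2 lower. Elongating spermatid markers, 3 of 8 found, summed to 1538 and 2021, against 2830.3 and 2538, with Akap4 called lower (-0.58). Round spermatid markers, 5 of 10 found, summed to 294 and 358, against 388 and 454. The part of these in the members' differences was not tested. Without the first library of the first sample group, which held the most spermatogonia marker reads, that group held a lone library. The log2 differences were then 1.51 for Ube2a, 3.35 for Usp9y, 1.46 for Usp11, 1.09 for Usp9x, 1.41 for Usp22, 1.49 for Usp26, 0.59 for Ube2e1 and -0.37 for Usp8. Each was smaller in size than with all libraries. The library left still had higher spermatogonia and Sertoli cell sums (59.7 and 134) than either library of the second group. Leaving out a library is therefore no test of the part of these markers.

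**Figure D4:**
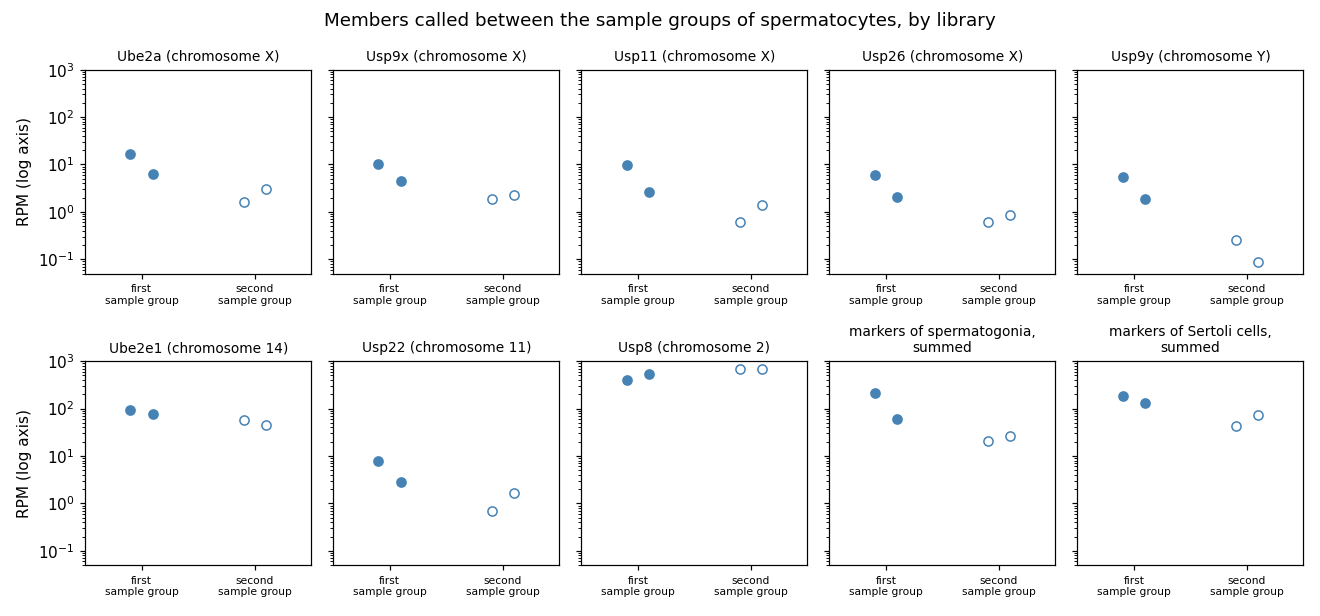
RPM (log axis) in each spermatocyte library for the 8 called members and for the summed markers of spermatogonia and Sertoli cells, first sample group (filled) left of second (open). In the 5 sex-linked genes, Usp22 and the spermatogonia sum (212 and 59.7, against 20.2 and 26.5) the first library of the first sample group is the highest point.

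In the rest of the ubiquitin system, calls within spermatocytes were few, where 4.89% of all genes were called higher and 2.71% lower. E1 enzymes had 2 of 9 higher, Y-linked Uba1y (3.38, SE 0.71) and X-linked Uba1 (1.25, SE 0.35), and 1 lower, Atg7. Other deubiquitinases had 2 of 24 higher, 1 of which, Uchl1, is also in the spermatogonia list. E3 ligases and partners had 3 of 39 higher, led by X-linked Huwe1 (2.76, SE 0.41).

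Splicing within spermatocytes gave 1 call among 615 member events, against 0.542% of all 61123, and 41 had an unadjusted limma p below 0.05 (6.67%, against 8.65% of all). A 139-nt exon of Ube2j2 (chromosome 4, 155955422 to 155955560) had inclusion of 97.9 and 98.9% in first-group libraries, against 99.9 and 99.9% in the second group. Skipping had 27 and 27 reads, against 2 and 1, and inclusion 2397 and 4517, against 3119 and 2782. The groups did not overlap, as in 328 of the 331 called events of all genes. The difference was -1.54 points (log2 odds -3.62, SE 0.99, limma adjusted p = 0.0489). The ratio of skipping to inclusion was 15.4 times that of the second group, with an exact 95% counting interval of 4.98 to 76.8 that covers counting error only. Leaving out any 1 library ended the call, and the authors' deposited table gave it an FDR of 0.347. A quasi-binomial test called 1 member event, against 0.772% of all, and the authors' deposited tables, with an FDR under 0.05 and levels 0.1 or more apart, held 3 (Usp6nl, Usp3 and Usp43), against 2.5% of all.

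Larger differences in spermatocytes were not called. The 111-nt Usp9x exon was included at 79.1 and 94.8%, against 36.4 and 57.2% (40.1 points, limma adjusted p = 0.569). A 377-nt intron of Usp35 was retained at 45.4 and 46.6%, against 37.2 and 19.8%. A 61-nt exon of Usp3, an H2A protease, had 86.5 and 79.1%, against 100 and 100%. Exons of Usp54 (49.2 and 55.9%, against 73.0 and 64.6%) and Usp33 (66.1 and 70.1%, against 81.1 and 85.7%) were lower in both first-group libraries.

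Within round spermatids the sample groups gave no member call. In abundance 0 of 71 tested members were called by limma, against 0.0537% of all 9315 genes, and 6 had an unadjusted limma p below 0.05 (8.45%, against 10.95% of all). Usp35, Usp43 and Ube2d1 had too few reads. Usp12 had 62.9 and 122 RPM in the first sample group, against 183 and 169 in the second (-1.01, SE 0.29, limma adjusted p = 0.284). Usp11 had 21.0 and 13.8, against 8.41 and 8.28 (1.02, SE 0.30, limma adjusted p = 0.286). Usp54, whose position read is overlapped by the noncoding gene 1810062O18Rik, had 71.7 and 70.0, against 43.2 and 48.3. Usp25 had 103 and 164, against 212 and 181, and Usp5 had 14.7 and 13.6, against 8.66 and 9.59. These 5 genes were named for their small p, and the groups did not overlap in them. Marker sums differed between the same groups, with no marker called by limma. Round spermatid markers, 7 of 10 found, summed to 2439.8 and 2959 RPM, against 3428 and 3075. Elongating spermatid markers, 3 of 8 found, summed to 7572 and 10185, against 13657 and 10718. Sertoli cell markers, 3 of 8 found, summed to 57.9 and 82.6, against 39.7 and 50.2, and spermatogonia markers, 3 of 10 found, to 3.35 and 2.48, against 4.37 and 3.14. Their part in the values of Usp12, Usp25 and the other 3 genes was not tested.

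In splicing 0 of 445 member events in round spermatids were called by limma, against 0.131% of all 48060, and 28 had an unadjusted limma p below 0.05 (6.29%, against 5.89% of all). A quasi-binomial test called 1, against 0.25% of all: a 95-nt exon of Usp16 (chromosome 16, 87480875 to 87480969) at 88.0 and 89.5%, against 95.5 and 95.8% (quasi-binomial adjusted p = 0.0475, limma adjusted p = 0.131). The authors' deposited tables held 5 member events with an FDR under 0.05 and levels 0.1 or more apart, in Usp11, Usp20, Usp43 and Usp35, against 1.47% of all. A 71-nt exon of Usp11 was included at 45.8 and 55.7%, against 25.3 and 0%. A 137-nt exon of Usp20 had 26.3 and 17.8%, against 5.47 and 2.54%. Neither passed the limma threshold, nor did exons of Ube2d-ps (45.3 and 70.2%, against 38.0 and 40.7%), Ube2e2 (80.1 and 68.8%, against 87.3 and 95.1%) and Ube2f (11.7 and 5.75%, against 22.7 and 22.7%).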

How the data were processed

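Polyadenylated RNA of 8 libraries was aligned with STAR to mm10, per the submitters' processing notes, with no version stated. The 10 deposited tables hold 5 event types for each of 2 stages in the column layout of rMATS junction-count tables, per the file headers. Inclusion and skipping read counts, form lengths and inclusion fractions of both libraries of a group were deposited in 1 cell each. The deposited p-values and FDR are the authors' own, and the deposited difference score is the mean inclusion fraction of the first minus the second sample group. Recomputed inclusion levels differed from the deposited ones by at most 0.0005.

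Log2 odds of inclusion (0.5 reads added and scaled, inverse counting variance as weights) and log2 RPM for each gene's most covered event (median-ratio scaling) were modelled by limma 3.58.1 (R 4.3.3, Python 3.11.15, pandas 2.3.3, matplotlib 3.10.9), with at least 10 mean reads and Benjamini-Hochberg adjustment over all events or genes. Stages were compared in 1 fit of 8 libraries. The stage contrast thus also carries any difference between the separately made tables. Overlapping events share reads, so event sums are not library totals. The scripts were tested on simulated data. Named were called members (at most 15 of smallest p), otherwise the 5 of smallest p or largest separated difference, the 10 highest by level, and members with a germ cell role; others named, and the per-exon Usp2 values, were chosen after their values were seen. The members and lists were chosen with earlier results of these data known. Results of 2 genes are not reported here.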

Additional observations from a re-analysis of the deposited data

Results flagged for a closer look

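A few members differed in opposite directions between the sample groups in the 2 stages, with no overlap of libraries in either. Of these values only that of Ube2a in spermatocytes was called. How many genes show such a pattern by sampling alone was not tested, nor was the difference between stages. Ube2a was 2.18 higher in the first sample group of spermatocytes on the log2 scale. It differed by -0.53 in round spermatids (SE 0.25, limma adjusted p = 0.483). The first value was read at an 81-nt skipped exon and the second at an alternative 3' splice site, so they belong to different events. Ube2b differed by 0.17 in spermatocytes and -0.20 in round spermatids (the latter with SE 0.20, limma adjusted p = 0.768). Usp2 differed by 0.034 in spermatocytes, where its 124-nt exon was read. In round spermatids, where its 857-nt exon was read, it differed by -0.30 (SE 0.20, limma adjusted p = 0.645). The 61-nt exon of Usp3 differed by -3.23 in log2 odds of inclusion in spermatocytes and 1.85 in round spermatids.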

How the results depend on the processing

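No paired analysis was possible because the columns carry no replicate numbers. Of 1196 values, under other settings, of the genes and events named by rule, 1060 kept their direction and side of the threshold, 120 lost a call, 15 gained one and 1 changed direction: Ube2b between stages, at -0.29 with library-sum scaling (Usp30, Ube2m and Ube2l3, outside the rule, also changed sign). Member abundance calls between stages stayed between 49 and 59. Member splicing calls between stages (33) were 16 without count weights, 19 with the trend on total reads, and 13 to 29 without 1 library. In spermatocytes the 1 splicing call became 0 without weights, with the trend on total reads or from 1 read on, 2 with unscaled added reads or 1 read added, 3 by the authors' deposited table, and 0 to 123 without 1 library. The 8 abundance calls became 5 with library-sum scaling, 2 from 50 reads on, and 0 to 7 without 1 library. In round spermatids the 0 splicing calls of limma became 1 by the quasi-binomial test, 5 by the authors' deposited table and 0 to 72 without 1 library, and the 0 abundance calls of limma became 0 to 8. Without 1 library a sample group holds a lone library that is assumed to vary like the other group; the cause of these changes was not tested. Genes and events under 10 reads could not be read at this depth.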
